A study of Mus musculus with 9 samples.

Results

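The CTLA2 proteins, the cystatins and the cathepsins form an inhibitor and protease system, and 10 of its genes were followed here in hematopoietic stem cells (HSCs) with and without the transcription factor Bcl11a. The genes were the inhibitors Ctla2a, Ctla2b, Cst3, Cst7 and Cstb and the proteases Ctsl, Ctsb, Ctss, Ctsh and Ctsc. They are 10 of 22180 genes with a probe set of their own on the array. Where a gene had several probe sets with a single symbol, the one that read highest on average over the 9 arrays was taken. The group was chosen by the Ctla2a readings, which were lower on all 3 arrays of cells with both Bcl11a alleles deleted, so the values of that genotype against the other genotypes are given as a description. Counts of calls in those contrasts are printed beside the share of all genes called, and nothing is read from them.

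The HSCs came from mice aged 6 to 8 months. Homozygously deleted mice (KO) were Bcl11a fl/fl and Mx1-Cre positive, heterozygously deleted mice (Het) were Bcl11a fl/wt and Mx1-Cre positive, and non-deleted mice (WT) were Bcl11a fl/fl and Mx1-Cre negative. There were 3 biological replicates per genotype, with 1 array each. All mice were given poly(I:C) in 5 doses, a double-stranded RNA mimic that induces interferon, which in turn switches on the Cre recombinase of the Mx1-Cre strain. Mx1-Cre is active in many interferon-responsive cells, so deletion was not limited to HSCs. WT mice lacked Cre as well as the deletion, so Cre and Bcl11a loss cannot be told apart in comparisons with WT. Cells were sorted as lineage-negative, Sca-1-positive and Kit-positive, without CD48 and Flt3 and with CD150, and on the presence or absence of YFP, a reporter whose state in the cells of each array was not known here.

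Cathepsins are proteases of the lysosome, most of them with a cysteine in the active site, that degrade proteins taken up or recycled by the cell and trim others into their active form. Cystatins are small proteins that bind the active-site cleft of these enzymes and block it: stefins such as cystatin B act inside the cell, cystatin C is secreted, and cystatin F is found in the endosomes of immune cells. The mouse CTLA2 proteins resemble the propeptide that keeps a newly made cathepsin inactive, and Ctla2a is known as an inhibitor of cathepsin L-like enzymes. Cathepsins S and L trim the invariant chain of MHC class II molecules, and cathepsin C, also called dipeptidyl peptidase 1, activates granule serine proteases of myeloid and cytotoxic cells.

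Ctla2a and Ctla2b are close copies on mouse chromosome 13, with only Tpbpb between them in the RefSeq gene order of GRCm38.p6, and Ctsl lies on the same chromosome. The 250 bases before the annotated start of each gene, from RefSeq on GRCm38.p6, are shown because they show how alike the gene pair is outside the coding sequence, and because their readings are compared below. The gene IDs are 13024 for Ctla2a and 13025 for Ctla2b. The Ctla2a stretch is chr13:60936626-60936875 and the Ctla2b stretch is chr13:60897448-60897697, both on the minus strand. Capitals mark the AP-1 motif TGANTCA and the BCL11A motif TGACCA on either strand.
Ctla2a: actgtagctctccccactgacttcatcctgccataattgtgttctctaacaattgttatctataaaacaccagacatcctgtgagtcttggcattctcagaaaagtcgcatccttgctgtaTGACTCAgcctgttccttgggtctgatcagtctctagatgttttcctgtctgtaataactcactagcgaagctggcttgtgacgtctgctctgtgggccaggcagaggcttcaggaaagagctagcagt
Ctla2b: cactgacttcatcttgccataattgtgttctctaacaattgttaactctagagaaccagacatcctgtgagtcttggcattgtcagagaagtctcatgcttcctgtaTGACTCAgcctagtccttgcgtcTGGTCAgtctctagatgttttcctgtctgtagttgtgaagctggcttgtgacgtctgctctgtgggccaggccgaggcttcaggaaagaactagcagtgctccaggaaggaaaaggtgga
Over 228 aligned bases the 2 stretches were identical at 208, which is 91.2%. The AP-1 motif occurred 1 time in each, and 6.75% of 32851 RefSeq promoter windows of this length hold it. TGACCA, the motif that BCL11A binds at the fetal globin promoters of human red cell precursors, occurred 1 time for Ctla2b (as TGGTCA) and 0 times for Ctla2a, where 11.4% of the windows hold it. The other motifs searched on both strands were those of GATA factors, RUNX factors and ETS factors. AGATAA, bound by Gata2 and its relatives, occurred 1 time for Ctla2a and 0 times for Ctla2b, with 9.99% of windows holding it. The RUNX motif TGTGGT occurred in neither and in 14% of windows. The ETS motif CAGGAAG occurred 0 times for Ctla2a and 2 times for Ctla2b, with 10.8% of windows holding it. The motifs marked do not overlap. A match of letters is a description of the sequence and not evidence of binding. The probe sequences of the array were not used here, so reads of Ctla2a and Ctla2b probes may be shared between the copies to an unknown extent.

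Values are log2 expression summarised by the authors with RMA, so a difference of 1 is a factor of 2, and differences of dim transcripts are compressed. Bcl11a itself read 7.82, 7.90 and 8.66 on the KO arrays, 8.34, 8.37 and 8.89 on the Het arrays and 8.73, 8.81 and 8.38 on the WT arrays. The array labelled KO replicate 3 thus lay inside the WT range. Neither the deleted stretch of Bcl11a nor the place of its probes was known here, so these readings do not check the deletion. Pearson's r between arrays of the same genotype was 0.862 to 0.932, and WT replicate 1 had the narrowest interquartile range of the arrays (2.22, against up to 2.83). Xist and Y-linked genes marked 1 of 3 KO, 1 of 3 Het and 2 of 3 WT arrays as female. The Y-linked genes read 2.22 to 3.32 on female arrays and Xist read 3.58 to 4.22 on male arrays, which shows where transcripts that are absent can read.

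Markers of the labelled cell type were present. Of 10 HSC markers with a probe set, among them Kit, Meis1, Hlf and Mecom, the list mean was 7.37 to 8.07 on KO arrays, 7.34 to 7.62 on Het arrays and 5.82 to 7.16 on WT arrays. Ly6a, the gene of Sca-1, was not analysed here. All 10 HSC markers were higher in KO and in Het than in WT means, where 45.4% and 48.2% of all genes were. None of the 10 passed the test over all genes in either comparison. WT replicate 1 had the lowest list mean, at 5.82, against 6.93 and 7.16 on WT replicates 2 and 3. In bulk samples, fewer cells of a type and less RNA per cell cannot be told apart.

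Ctla2a, the inhibitor of cathepsin L-like enzymes, was the member with the widest gap between genotypes. It read 8.20, 8.48 and 8.17 on the KO arrays, 9.62, 10.16 and 9.69 on the Het arrays and 10.16, 10.18 and 9.94 on the WT arrays. Every KO array was lower than every Het and WT array, by at least 1 log2 unit, while Het and WT arrays overlapped. The means were 8.28 ± 0.171 in KO, 9.82 ± 0.294 in Het and 10.09 ± 0.133 in WT cells (SD, n = 3 each). Ctla2a was thus 3.51-fold lower in KO than in WT cells (log2 difference -1.81, SE 0.231) and 2.91-fold lower in KO than in Het cells (-1.54, SE 0.231). With arrays left out in turn, KO minus WT was between -1.91 and -1.75 and KO minus Het between -1.64 and -1.37, which describes the readings that chose the genes and supports nothing further. Within female mice (1 KO and 2 WT arrays) the KO minus WT difference was -1.88 and within male mice (2 KO and 1 WT) it was -1.84. Of all genes tested, 303 (1.82%) read lower on all KO arrays than on all Het and WT arrays, and Ctla2a was the member among them. No member read higher on all KO arrays than on all others, where 1.74% of all genes did.

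**Figure D1:**
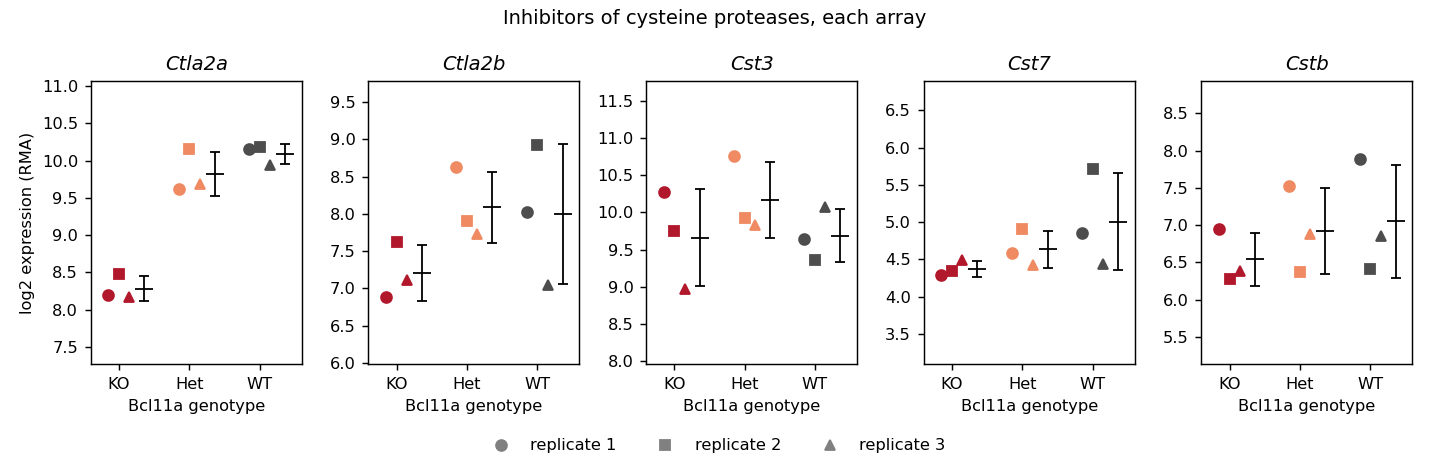
log2 expression (vertical axis) of 5 inhibitor genes on each array, by Bcl11a genotype (horizontal axis). Marker shapes give the replicate, bars the mean ± SD of 3 arrays, and each panel spans the same number of log2 units around its own centre. The 3 Ctla2a points of KO cells lie at 8.17 to 8.48, below all Het and WT points, while the other inhibitors overlap between KO and WT.

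Ctla2b, the neighbouring copy of Ctla2a, was also lowest on average in KO cells, with a wider spread. It read 6.89, 7.62 and 7.11 on the KO arrays, 8.63, 7.90 and 7.73 on the Het arrays and 8.03, 8.92 and 7.04 on the WT arrays. KO arrays lay below all Het arrays but overlapped with WT, because WT replicate 3 read as low as the KO arrays. The difference was -0.79 (SE 0.446) for KO minus WT and -0.88 (SE 0.446) for KO minus Het. For KO minus WT it was between -1.27 and -0.33 when arrays were left out in turn, with the value nearest to 0 without WT replicate 2. Over the 9 arrays Ctla2b correlated with Ctla2a with Pearson's r of 0.62, which placed it at rank 1204 of 16635 genes, and after the genotype means were subtracted r was 0.27. These values describe 9 shared libraries of 3 genotypes.

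Cst3, which encodes the secreted inhibitor cystatin C, read 10.27, 9.75 and 8.97 on the KO arrays, 10.76, 9.92 and 9.83 on the Het arrays and 9.64, 9.36 and 10.07 on the WT arrays. The genotypes overlapped, and KO minus WT was -0.03 (SE 0.377), with values from -0.33 to 0.32 when arrays were left out in turn. A further Cst3 probe set followed the chosen one closely (r = 0.99 over 9 arrays) and gave a KO minus WT difference of -0.02. Cst7, the gene of cystatin F, was 4.37 ± 0.104 in KO, 4.64 ± 0.25 in Het and 5.01 ± 0.652 in WT cells (SD, n = 3 each). The WT mean was carried by replicate 2 at 5.72, and KO arrays (4.29 to 4.49) overlapped with WT replicate 3 at 4.44. These KO readings lay just above the range in which absent transcripts can read. Without WT replicate 2 the KO minus WT difference of Cst7 shrank to -0.28, against -0.63 with all arrays. Cstb, the cytosolic stefin cystatin B, read 6.95, 6.28 and 6.39 on the KO arrays, 7.52, 6.37 and 6.88 on the Het arrays and 7.89, 6.41 and 6.85 on the WT arrays. Its KO minus WT difference of -0.51 (SE 0.413) was -0.09 without WT replicate 1.

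Among the proteases, Ctsc and Ctsh had the narrowest spread in KO and Het cells, and they differed in opposite directions. Ctsc, which encodes the activator of granule serine proteases, read 7.21, 6.90 and 6.88 on the KO arrays, 6.05, 6.21 and 6.02 on the Het arrays and 5.25, 6.89 and 6.47 on the WT arrays. All KO arrays were above all Het arrays, and they overlapped with WT only through WT replicate 2. The difference was 0.90 (SE 0.369) for KO minus Het and 0.79 (SE 0.369) for KO minus WT, the last of which was 0.32 without WT replicate 1. Ctsh, a cathepsin with aminopeptidase activity, read 4.39, 4.06 and 4.27 on the KO arrays, 4.49, 4.34 and 4.13 on the Het arrays and 4.52, 5.16 and 4.72 on the WT arrays. Both KO and Het arrays lay below all WT arrays, with differences of -0.56 and -0.48 (SE 0.240 each). Some KO and Het readings of Ctsh fell within the range in which absent transcripts can read.

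**Figure D2:**
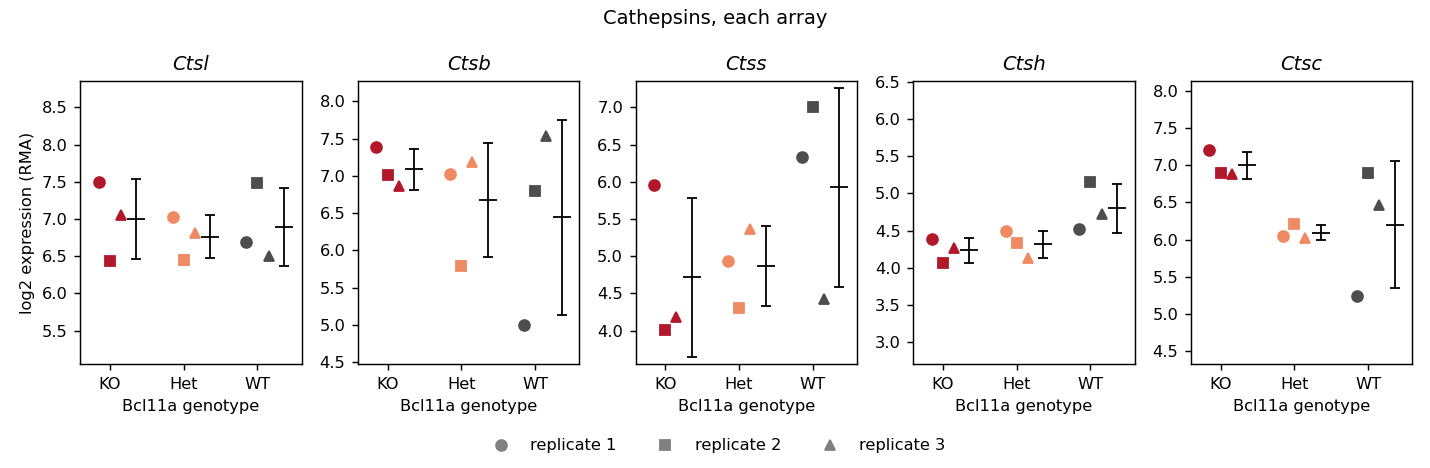
log2 expression (vertical axis) of 5 cathepsin genes on each array, by Bcl11a genotype (horizontal axis), with marker shapes for the replicate, bars for the mean ± SD of 3 arrays, and the same span of log2 units in each panel. KO points of Ctsc (6.88 to 7.21) lie above all Het points, KO and Het points of Ctsh lie below all WT points, and Ctss and Ctsb spread over more than 2 log2 units among WT arrays.

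The remaining cathepsins overlapped between all genotypes. Ctss, the cathepsin of antigen-presenting cells, read 5.95, 4.01 and 4.19 on the KO arrays, 4.94, 4.30 and 5.37 on the Het arrays and 6.33, 7.01 and 4.43 on the WT arrays. Its means gave a KO minus WT difference of -1.21 (SE 0.675), but KO replicate 1 read above WT replicate 3, and the difference was -0.66 without WT replicate 2 and -1.95 without WT replicate 3. Ctsb, the broadly expressed cathepsin B, was 7.09 ± 0.273 in KO, 6.67 ± 0.766 in Het and 6.44 ± 1.31 in WT cells (SD, n = 3 each). WT replicate 1, at 4.99, was its lowest array, and without that array KO minus WT was -0.08, against 0.64 with all arrays. Ctsl, the cathepsin that CTLA2 proteins resemble in their propeptide fold, read 7.50, 6.43 and 7.06 on the KO arrays, 7.03, 6.45 and 6.81 on the Het arrays and 6.69, 7.48 and 6.50 on the WT arrays. The genotypes of Ctsl overlapped throughout, with a KO minus WT difference of 0.11 (SE 0.346), or -0.145 to 0.40 when arrays were left out in turn.

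All 10 members passed the filter on low values, which kept 16636 genes. In KO minus WT, 1 of 10 members (Ctla2a) was called by limma at an adjusted p under 0.05, where 0.0421% of all genes were called (0.00601% lower and 0.0361% higher); this is the contrast the choice of genes used. With arrays left out in turn, Ctla2a was called in 1 of 9 fits. At an unadjusted p under 0.05 the members were Ctla2a and Ctsh, 2 of 10, where the share of all genes was 8.21%. By the plainer criterion that KO and WT arrays do not overlap, the members were Ctla2a and Ctsh, 2 of 10, both lower, where 13.8% of all genes did not overlap (7.32% lower and 6.51% higher). In KO minus Het, 0 of 10 members were called, as were 0% of all genes. At an unadjusted p under 0.05 there were 2 of 10 (Ctla2a and Ctsc), where the share of all genes was 4.56%. KO and Het arrays did not overlap for 3 members (Ctla2a and Ctla2b lower, Ctsc higher), where 9.82% of all genes did not (5.4% lower and 4.42% higher). Differences below 0 in KO minus Het were found for 7 of 10 members, where 52.8% of all genes were below 0. Differences below 0 in KO minus WT were found for 7 of 10 members, with a median of -0.54, where 54.6% of all genes were below 0 and their median was -0.04. The median of the members was -0.30 without WT replicate 2.

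The comparison of Het with WT was not used in choosing the genes. It sets cells with Cre and loss of 1 allele against cells with neither, so Cre and allele loss cannot be told apart in it. None of the 10 members was called by limma (0 of 10 at an adjusted p under 0.05, 0% of all genes), and 0 of 10 passed an unadjusted p under 0.05, where 4.89% of all genes did. Ctla2a differed by -0.27 (SE 0.231, 95% interval -0.78 to 0.24, limma adjusted p = 0.992). Ctsh differed by -0.48 (95% interval -1.01 to 0.05, limma adjusted p = 0.992) and was the member whose Het and WT arrays did not overlap, 1 of 10, where 8.41% of all genes did not (3.9% lower and 4.51% higher). Differences below 0 were found for 7 of 10 members, with a median of -0.13, where 51.7% of all genes were below 0; without WT replicate 2 that median was 0.08. Ctss had the widest interval, at -1.05 (-2.55 to 0.45). The other 7 members had differences between -0.37 and 0.48, with limma adjusted p-values from 0.992 to 0.998.

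Within the sexes, KO minus WT kept its direction for Ctla2b (-0.43 in female and -1.67 in male mice), Cst7 (-0.16 and -1.41), Ctss (-1.19 and -2.03), Ctsh (-0.35 and -0.94), Ctsc (1.02 and 0.17) and Ctsb (0.60 and 0.40), each from 1 KO and 2 WT arrays of female mice and 2 KO and 1 WT arrays of male mice. It had opposite signs for Cst3 (-0.89 and 0.65), Cstb (-0.98 and 0.21) and Ctsl (0.47 and -0.52). None of these differences between the sexes was tested.

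**Figure D3:**
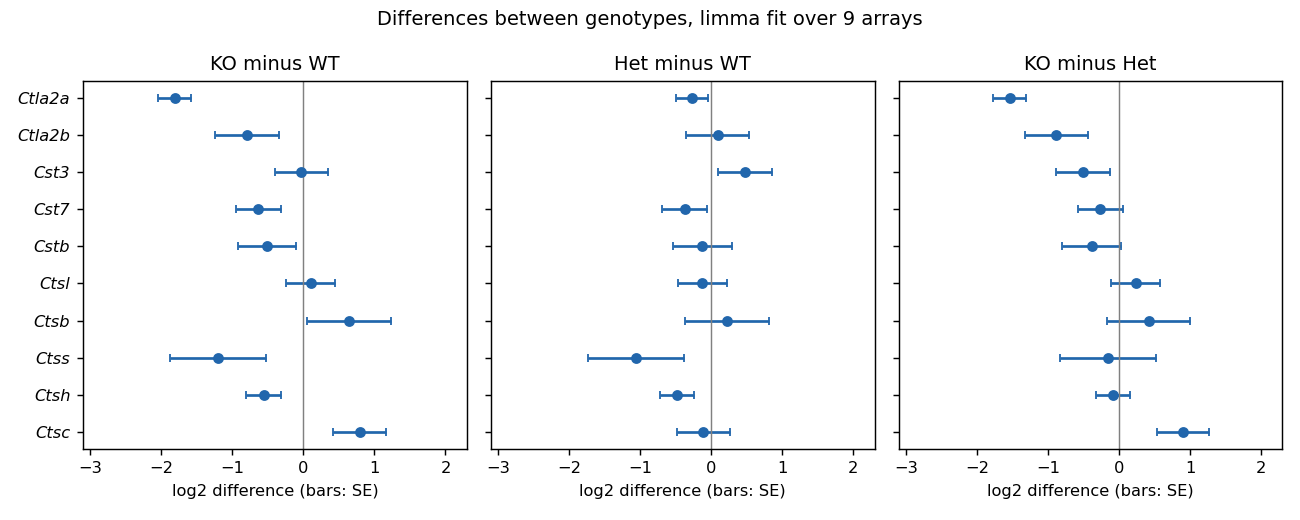
log2 differences between genotypes (horizontal axis) for the 10 genes (vertical axis) from the limma fit over 9 arrays, with bars for the SE. Ctla2a stands at -1.81 in KO minus WT and -1.54 in KO minus Het but at -0.27 in Het minus WT, and Ctsc is at 0.79, 0.90 and -0.11 in the same order.

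The order of the genotype means differed between members. It was WT, Het, KO from high to low for Ctla2a, Cst7, Cstb, Ctss and Ctsh, and Het, WT, KO for Ctla2b and Cst3. Ctsb ran KO, Het, WT, and Ctsl and Ctsc ran KO, WT, Het. Neighbours in these orders overlapped in their arrays, except for KO and Het in Ctla2a and Het and WT in Ctsh. The WT arrays had the largest SD of the genotypes for 7 of 10 members, where WT was the most variable genotype for 38.6% of all genes. WT replicate 2, the male WT array, held the highest value of 5 members (Ctla2a, Ctla2b, Cst7, Ctss and Ctsh), and KO replicate 2 the lowest value of 4 (Cstb, Ctsl, Ctss and Ctsh). For Ctla2a the highest value was 10.18, against 10.16 on WT replicate 1 and Het replicate 2. The share of all genes with extremes on these arrays was not counted, and a part of sex was not tested.

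Genes whose readings followed Ctla2a most closely over the 9 arrays were listed by Pearson's r, as a description that takes its shape largely from the genotype means. The highest r belonged to Rhou, a small GTPase (0.95), the olfactory receptor Olfr38 (0.94), Mrpl12, a protein of the mitochondrial ribosome (0.93), Relt, a TNF receptor family member (0.93), and Dpf3, a subunit of the BAF chromatin remodeller (0.93). Of these, Mrpl12 was 6.30 ± 0.197 in KO, 7.05 ± 0.174 in Het and 7.08 ± 0.313 in WT cells, and Rhou, at 2.86 ± 0.115 in KO and 3.66 ± 0.138 in WT cells, lay in the range of absent transcripts (SD, n = 3 each). Dpf3 lay in that range on all 9 arrays, at 3.23 to 4.22. The KO readings of Relt (3.51 to 3.70) and Olfr38 (3.66 to 3.98) lay in it as well. The most opposed readings were those of Abca1, a cholesterol exporter (r = -0.98), the immune receptor adaptor Tyrobp (-0.97), the stem cell gene Hoxb5 (-0.96), Osbp, an oxysterol-binding protein (-0.95), and Fgd4 (-0.94). Abca1 was 5.28 ± 0.107 in KO, 4.57 ± 0.125 in Het and 4.45 ± 0.147 in WT cells (SD, n = 3 each). Its KO arrays, at 5.16 to 5.37, did not overlap with the Het and WT arrays, where 1.74% of all genes read higher on all KO arrays. Abca1 was picked for readings opposed to those of Ctla2a, so this separation follows largely from the choice and is no separate result. Among the members, Ctsc was the most opposed to Ctla2a (r = -0.66) and Cst7 was as close to it as Ctla2b (r = 0.62).

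**Figure D4:**
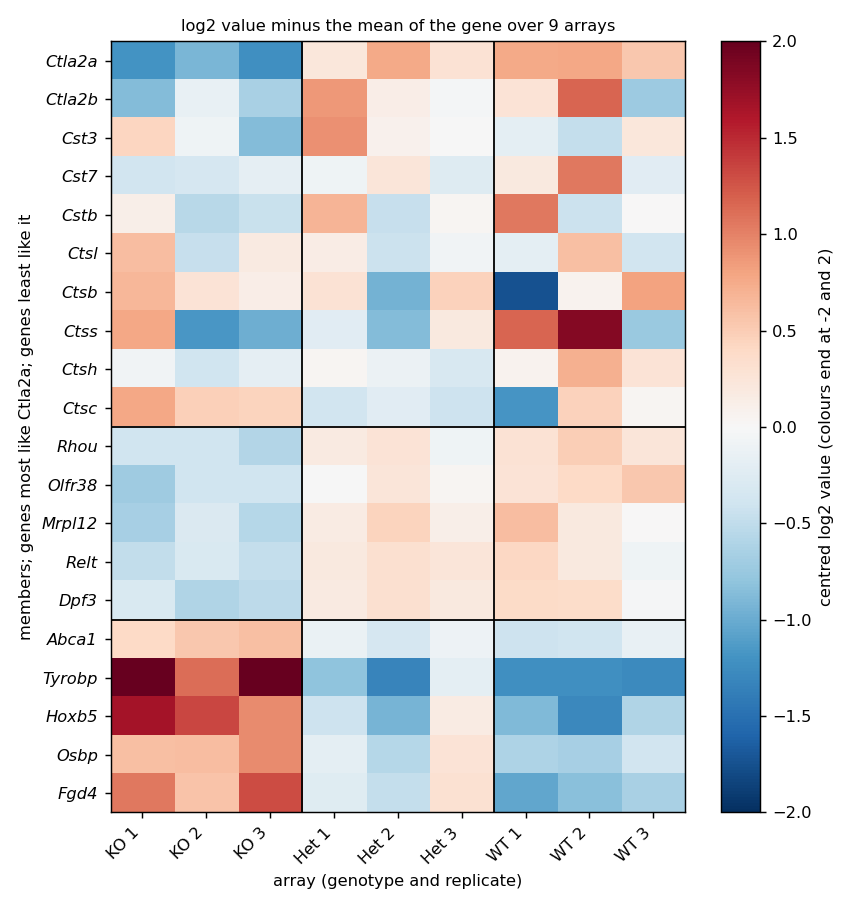
log2 value minus the gene's own mean over the 9 arrays (colour, ending at -2 and 2) for each array (horizontal axis) and gene (vertical axis), with the 10 members above, the 5 genes most like Ctla2a in the middle and the 5 most opposed to it below. KO columns are blue for Ctla2a and the genes like it and red for the opposed genes, while the rows of Ctss and Ctsb change within genotypes.

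Most other genes next to the Ctla2 pair read low. Chromosome 13 carries, next to the Ctla2 genes, a family of cathepsins known from the mouse placenta, and all 9 of those listed (such as Cts6, Ctsj and Ctsll3) lay under the filter, with no reading above 3.67 on any array. Cts6 averaged 2.95 ± 0.245 in KO, 2.98 ± 0.599 in Het and 3.17 ± 0.351 in WT cells (SD, n = 3 each). The direct neighbours Tpbpb and Tpbpa, trophoblast genes, averaged 2.20 and 2.22 in KO and 2.01 and 2.56 in WT cells. The gene 4930486L24Rik, on the other side of Ctla2b, passed the filter, at 4.48 ± 0.504 in KO, 3.79 ± 0.435 in Het and 4.18 ± 1.52 in WT cells (SD, n = 3 each).

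Other genes of the protease system were taken from lists by textbook function. Of 10 other cathepsins and legumain, 9 were tested and 0 passed in KO minus WT, with 6 differences above and 3 below 0 and a median of 0.02, where 45.4% of all genes were above 0. That median was -0.07 with the values quantile normalized again, 0.34 (7 of 9 above 0) without KO replicate 3 and 0.20 (8 of 9 above 0) without WT replicate 1 and KO replicate 3. The aspartic protease Ctsd averaged 8.68 ± 0.606 in KO and 8.66 ± 0.283 in WT cells, the serine carboxypeptidase Ctsa differed by 0.31 and the cysteine protease Ctso by 0.65. Of 18 other cystatins with a probe set, 3 were tested, all with differences below 0 (Kng2 at -0.42, Ahsg at -0.12 and Csta1 at -0.43). Their means over the 9 arrays were 3.59 to 4.01, within the range in which absent transcripts can read. With the values quantile normalized again, 1 of the 3 was above 0. Among other inhibitors of cysteine proteases, Cast, the calpain inhibitor calpastatin, was 7.49 ± 0.482 in KO and 6.82 ± 0.527 in WT cells (difference 0.68), Spock1 differed by -0.54 and Serpinb13 was under the filter. Granule serine proteases, the known substrates of cathepsin C, had 4 tested genes with a median of -0.15, which was -0.07 without WT replicate 1 and -0.01 in a fit that also held each array's interquartile range; Prtn3, proteinase 3, differed by 0.50, Elane, neutrophil elastase, by -0.22 and Gzmk by -0.08. Of the genes listed for MHC class II, which also held Ciita and Ifi30, 9 were tested with a median of 0.07. That median was -0.39 without WT replicate 1 and -0.08 with the values quantile normalized again. H2-Ab1 differed by -1.38, H2-DMa by 0.07 and H2-Oa by 0.98. Cd74, the gene of the invariant chain on which cathepsins S and L act, was not analysed here. None of the genes in these lists passed over all genes in KO minus WT, Het minus WT or KO minus Het.

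Genes of the lysosome, the compartment in which most cathepsins work, read higher in KO and in Het than in WT means for most members. Differences above 0 were found for 27 of 31 genes in KO minus WT (median 0.34) and for 26 of 31 in Het minus WT (median 0.22), where 45.4% and 48.2% of all genes were above 0, and 0 of 31 passed the test in either. Cd63, a lysosomal membrane tetraspanin, differed by 0.38 in KO minus WT, Lamp1, a lysosomal membrane glycoprotein, by 0.30 and Grn, progranulin, by 0.44. The list mean was 6.65, 6.65 and 6.33 on the KO arrays, 6.54, 6.47 and 6.65 on the Het arrays and 5.83, 6.43 and 6.42 on the WT arrays, so that WT replicate 1 stood lowest and KO replicate 3 lay below the other WT arrays. Without WT replicate 1 the KO minus WT count was 21 of 31 and the median 0.20, and the median was 0.18 in a fit that also held each array's interquartile range. The median of the lysosome list was thus 0.34 where that of the 10 members was -0.54; the difference between the lists was not tested.

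**Figure D5:**
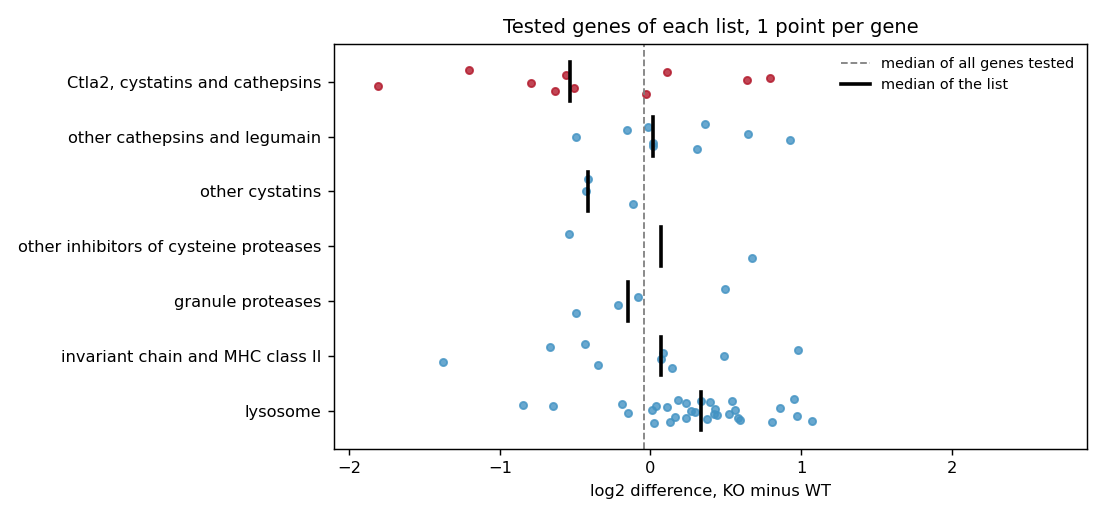
log2 differences of KO minus WT (horizontal axis) for the tested genes of each list (vertical axis), 1 point per gene, with the list's median as a black bar and the median of all 16636 genes (-0.04) as a dashed line. The 10 members have a median of -0.54, and 27 of 31 lysosome genes lie to the right of 0.

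Markers of other blood cells were read on the same arrays, many of them at low levels. Ctss, Cst3, Cst7 and Ctsh are also expressed in myeloid, dendritic, lymphoid or NK cells, and Ctla2a is known from activated T cells and mast cells. The mean of 11 neutrophil markers was 4.01 to 4.18 on KO, 4.10 to 5.57 on Het and 4.55 to 5.27 on WT arrays. That of 11 monocyte and macrophage markers was 4.19 to 4.58 on KO, 4.41 to 4.44 on Het and 4.58 to 5.08 on WT arrays, of 6 B cell markers 3.42 to 3.54, 3.73 to 3.96 and 3.67 to 4.08, and of 10 T and NK cell markers 3.85 to 4.18, 3.83 to 4.27 and 4.18 to 4.25. Means were 3.93 to 4.20, 4.12 to 4.31 and 4.05 to 4.29 for 7 dendritic cell markers and 3.20 to 3.37, 2.91 to 3.47 and 3.50 to 3.61 for 5 mast cell and basophil markers. The 9 neutrophil markers tested had a median KO minus WT difference of -0.33, with 8 below and 1 above 0. The brightest of them, S100a9 and S100a8, had larger mean differences than Ctla2a, with wide SEs (0.84 and 1.07). S100a8 read 2.31 to 6.74 on KO, 5.06 to 8.74 on Het and 8.42 to 8.97 on WT arrays (KO minus WT -3.86), and S100a9 read 6.12 to 7.22 on KO, 5.33 to 9.51 on Het and 8.06 to 9.16 on WT arrays (-1.99). Among T and NK cell markers, Nkg7 read 4.81 to 5.08 on KO, 5.72 to 6.69 on Het and 5.96 to 7.87 on WT arrays (-1.75), while Klrb1c read 6.04 to 7.07 on KO, 4.02 to 5.09 on Het and 3.77 to 4.95 on WT arrays (2.18). KO and WT arrays did not overlap for these 4 genes, where 13.8% of all genes did not, and none of them passed the limma test over all genes. These 4 were picked after their values were seen. Nkg7 and Klrb1c had the lowest and the highest KO minus WT difference of their list. Markers of B cells and dendritic cells were mixed in level. Cd79a read 2.99 to 3.58 on KO and 3.43 to 3.85 on WT arrays. Itgax read 3.30 to 3.96 on KO and 3.44 to 4.07 on WT arrays. Higher readings were those of Cd79b, at 4.47 to 5.91 on KO and 4.63 to 6.63 on WT arrays. Cd209a was at 6.46 to 6.47 on KO and 5.78 to 6.45 on WT arrays. Lyz2, lysozyme of myeloid cells, was the monocyte marker read highest, at 7.58 to 8.80 on KO, 8.67 to 8.87 on Het and 9.20 to 9.46 on WT arrays. Its KO and WT arrays did not overlap, which also held for 13.8% of all genes. Lyz2 also had the lowest KO minus WT difference (-1.03) of the 11 monocyte and macrophage markers. Of those 11, 9 were below 0 and 2 above, with a median of -0.25, and none was called. WT replicate 2, which had the highest Ctss and Cst7, had a monocyte marker mean of 4.61 and a dendritic cell marker mean of 4.29. The markers that the gate selects against, Cd48 and Flt3, averaged 3.74 to 4.14 on KO, 4.0 to 4.53 on Het and 3.81 to 4.96 on WT arrays. The mean of 3 erythroid markers was 4.68 to 6.80 on KO, 5.13 to 6.21 on Het and 5.48 to 6.27 on WT arrays, that of 5 megakaryocyte markers 6.33 to 7.34, 6.05 to 7.13 and 5.81 to 6.50, and that of 8 endothelial and stromal markers 4.57 to 4.75, 4.21 to 4.47 and 4.08 to 4.45. The part of these cells in the differences of the members was not tested.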

How the data were processed

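RNA of sorted HSCs was amplified by a whole-transcriptome kit for small amounts and read on Mouse Gene 2.0 ST arrays of Affymetrix, as the labels' protocols state. The authors deposited log2 values per probe set; the submitters' processing notes name RMA, and neither settings nor a build were found. RMA removes background, normalizes between arrays and summarises the probes of a set.

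Of 41345 probe sets, 23521 carried 1 gene symbol, 1814 carried several and 16010 had no entry in the platform annotation. Symbols were updated through gene IDs (23328 matched, 193 did not), and the probe set with the highest mean stood for each of 22180 genes. A filter on the mean, set at the 25th percentile (3.31), kept 16636 genes. limma 3.58.1 in R 4.3.3 (lmFit, eBayes) fitted a mean per genotype over all 9 arrays, with 6 residual and 4.26 prior degrees of freedom. Benjamini-Hochberg adjusted p-values are two-sided over all genes tested, called under 0.05. The number of arrays limits the precision, and the median SE of KO minus WT was 0.298. On simulated data for KO minus WT over 16636 genes, the fit called 17.8% of the genes given a log2 difference of 1, and 73.8% at 2. The simulation used independent normal noise and changed many genes in KO, by 1 to 4 log2 units. Adjusted p-values depend on how many genes change, and 7 were called in the real data. The simulated shares may thus be too high for these data.

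The members and lists were chosen with earlier results of these data known. Genes named are Bcl11a, the members, the 3 highest-reading genes per function list, the 5 genes most and 5 least correlated with Ctla2a (without predicted genes and small RNAs), and sex-linked genes. Markers and the direct neighbours of Ctla2a named beyond this were chosen after their values were seen. The lists covered other cathepsins and legumain, placental cathepsins, other cystatins, other inhibitors of cysteine proteases, granule proteases, MHC class II, the lysosome and cell type markers. Promoter windows were found for 7 of the 10 members, and those of Ctla2a and Ctla2b are printed. Alternatives changed the filter, normalization, covariates, weights, probe sets and arrays used.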

Additional observations from a re-analysis of the deposited data

Results flagged for a closer look

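Within the sexes, 3 members had all arrays on opposite sides in a contrast, and these differences between the sexes were not tested. Each rests on 1 or 2 arrays per side. With so few arrays complete separation is common, and 1 array against 1 separates at any difference. The share of all genes with such opposite readings was not counted, so nothing is read from the 3 members. Cst3 differed by -0.885 between the KO and the WT arrays of female mice and by 0.65 between those of male mice. Cst7 differed by 0.07 for KO minus Het in female mice and by -0.43 in male mice. Ctsl differed by 0.215 for Het minus WT in female mice and by -0.74 in male mice.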

How the results depend on the processing

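Over 22 alternatives the Ctla2a difference, from the readings that chose the genes, was between -1.91 and -1.72 for KO minus WT, -1.64 and -1.37 for KO minus Het and -0.44 and -0.17 for Het minus WT. For KO minus WT, 8 of the 22 leave it at -1.81 by construction. The number of members called, 1 with all arrays, was 0 with genes at or above the median level only, quantile normalized again, sex as a term, the interquartile range of the array as a term, the replicate block or only the arrays of the genotypes compared, and 0 with WT 1 and KO 3 both left out, an alternative chosen after seeing the data. It ranged from 0 to 1 when arrays were left out in turn, and was 1 only without Het replicate 2. Over all genes, 7 were called, against 0 with the interquartile range or the replicate block, 1 with only the arrays compared, 3 with sex or quantile normalization, 4 at or above the median level, 24 with array weights, and 0 to 15 with arrays left out in turn (15 without KO replicate 3). The cause was not tested. The members called stayed at 1 with no filter, each array centred on its median, array weights and the mean of all probe sets. The replicate numbers share only a number: deviations of same-numbered arrays correlated between -0.19 and 0.23, 2 of 9 arrays correlated best with their own number, and the block took the members called in KO minus WT from 1 to 0 and left Het minus WT and KO minus Het at 0. Small Het minus WT differences changed sign: Ctla2b was -0.14 with sex as a term, -0.0313 with array weights and -0.66 within male mice. Cst3 was -0.025 within female mice. Cstb was 0.19 with array weights, 0.29 with WT 1 and KO 3 left out and 0.54 within male mice. Ctsl was 0.22 and Ctsc 0.16 within female mice. Ctsb was -0.11 where the fit held the interquartile range, -0.50 with WT 1 and KO 3 left out and -0.39 within male mice. With arrays left out in turn, Het minus WT ranged from -0.39 to 0.55 for Ctla2b, -0.45 to 0.29 for Cstb, -0.32 to 0.17 for Ctsl, -0.50 to 0.78 for Ctsb and -0.59 to 0.23 for Ctsc. Signal near the range of absent transcripts limits Ctsh, Ctss and Cst7.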
